A study of Mus musculus with 79 samples.

Results

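The transcriptome of the adult hypothalamus was compared between 4 Δ/D329A and 5 +/+ mice over every gene with usable expression. The members were the genes at or above 0.1 RPKM (reads per kilobase of exon, scaled to the reads of the library) in at least 4 of the 9 RNA-seq libraries, with chromosome MT left out. They numbered 17839 of the 25952 genes of the table outside chromosome MT. The study asked what a D329A substitution in the PWWP domain of the DNA methyltransferase DNMT3A does in mice, and the hypothalamus was profiled because it controls feeding, growth and endocrine function. The +/+ mice carried wild-type Dnmt3a on both chromosomes. The Δ/D329A mice carried a maternal allele without exon 18 (Δ), made by a Cre driven by the oocyte promoter of Zp3, and a paternal D329A allele. No wild-type copy of Dnmt3a was present in these mice, so that the effect of D329A and that of having a single unrecombined allele cannot be told apart in this comparison. All mice were 14 weeks old on the C57BL/6Babr background, each gave 1 library of ribosomal RNA-depleted total RNA. 1 more Δ/D329A library had been left out before deposit.

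DNMT3A adds methyl groups to cytosines that carried none, and its PWWP domain binds methylated histone tails and so directs the enzyme to parts of the genome. Promoters of developmental regulators are held silent in adult brain by Polycomb complexes, which leave H3K27me3 on histone H3, often together with H3K4me3, the mark of active starts (bivalent promoters). The hypothalamus is a mixture of peptide-making neurons, other neurons, astrocytes, oligodendrocytes, microglia, vessels and tanycytes, the glia that line the third ventricle. In RNA from such a mixture, fewer cells of a type and less RNA per cell cannot be told apart.

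The sum of reads over genes ranged between 5618761 and 9977821 in +/+ and between 3874694 and 6599574 in Δ/D329A. Δ/D329A replicate 2 was the library with the fewest reads. The tissue was recognised by its markers in each library, with 1178 to 3659 reads for Pmch (melanin-concentrating hormone), 453 to 1318 for Hcrt (hypocretin) and 71 to 263 for Sim1. The supplement of the study gives the RNA-seq mice as female, a legend with expression tracks says male, and the labels give no sex. Xist, the RNA of the inactive X chromosome, had between 2694 and 7044 reads in each of the 9 libraries, Kdm5d, Eif2s3y and Uty of chromosome Y had 0 and Ddx3y had 1 read in all. These genes gave the same picture in both genotypes.

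Across the whole ranking, 10638 genes (59.6%) had a log2 difference above 0 and the median difference was 0.06. Much of the upper end held genes with few reads. Of the genes tested, 1709 (9.58%) had no read in any library. Such a gene is deposited at 0.9 reads divided by the size of the library, which places it 0.37 higher in Δ/D329A on the log2 scale by construction, and 751 of the 1783 genes in the top 10% of the ranking were of this kind. Among the 13870 genes with a mean of at least 10 reads per library, 7432 (53.6%) lay above 0 and the median was 0.02. The ranking here orders genes by the limma statistic, the difference over its standard error.

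**Figure D1:**
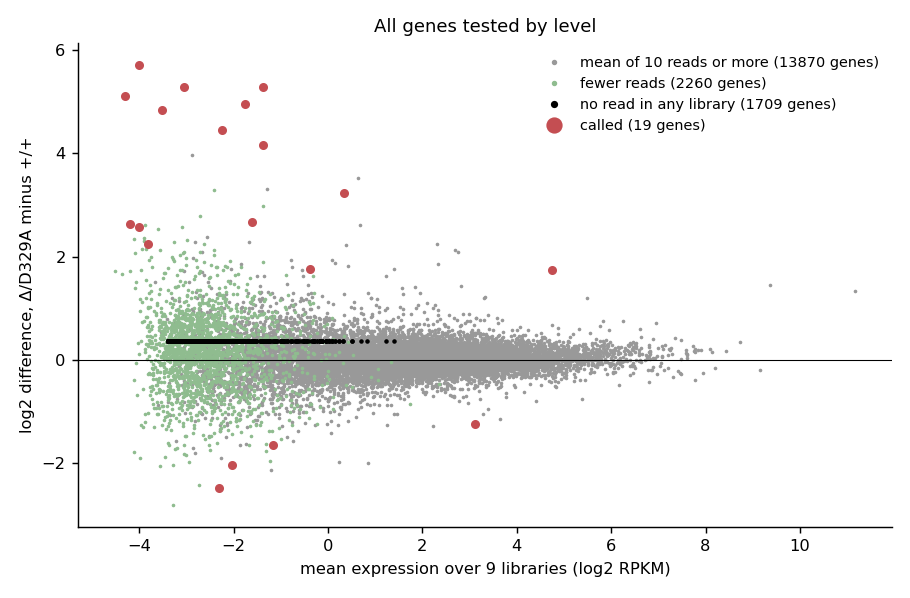
Each point is 1 of the 17839 genes tested, with its mean expression over the 9 libraries on the x axis (log2 RPKM) and the log2 difference, Δ/D329A minus +/+, on the y axis. Genes without any read form the black line at 0.37, genes with fewer than 10 reads on average (green) fan out on the left, and the genes called higher, apart from Bcas1 at the right, stand at low mean expression above the cloud.

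Limma called 19 of the 17839 genes (0.107%) at a Benjamini-Hochberg adjusted p under 0.01. The 15 genes called higher (0.0841%) were mostly genes with little or no expression in +/+ hypothalamus, and they fell into developmental transcription factors (Wt1, Lhx4, Pou4f1, Hoxa4, Hoxa6, Hoxa7), cartilage matrix genes (Lect1, Matn1), genes of pigment cells (Dct, Gpnmb), a GABA receptor subunit (Gabrr2), a tubulin (Tuba1c), Trim40, a lipid droplet gene (Plin4) and an oligodendrocyte gene (Bcas1). The 4 called lower (0.0224%) were Gabra2, Nr2e1, Mndal and Rln1. With each library centred on its median the split was 22 higher and 12 lower, and with quantile normalization 16 and 16. In each of the 19 genes the Δ/D329A libraries lay outside the range of the +/+ libraries, as 317 genes (1.78%) did above it and 219 (1.23%) below it. Of the 15 called higher, 7 reached the expression limit in no +/+ library, as did 18 of the 317. Such genes were tested only because all 4 Δ/D329A libraries reached the limit, so their lack of overlap was fixed in advance.

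Wt1, a zinc finger factor of kidney and gonad development, was among the genes whose promoter carried H3K27me3 without H3K4me3 in +/+ hypothalamus. It had 0, 0, 0, 2 and 0 reads in the +/+ libraries and 61, 32, 37 and 48 in the Δ/D329A libraries. Lhx4, a LIM homeobox factor of pituitary and motor neuron development, had 0, 0, 1, 0 and 1 reads in +/+ and 25, 21, 26 and 29 in Δ/D329A. Both genes were nearly silent in every +/+ mouse and read in every Δ/D329A mouse.

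The HoxA cluster, whose genes set position along the body axis, was without reads in +/+ at Hoxa4, Hoxa5, Hoxa6 and Hoxa7. In the 4 Δ/D329A libraries Hoxa7 had 33, 9, 34 and 16 reads, Hoxa5 had 3, 2, 11 and 5, Hoxa6 had 5, 3, 5 and 4, and Hoxa4 had 5, 3, 4 and 2. Only 5 of the 39 Hox genes listed passed the expression limit, and those without a +/+ read passed it through the Δ/D329A libraries. The gene models of Hoxa4 and Hoxa6 overlap those of Hoxa3 and Gm20653, and all 3 genes called overlap that of 2700086A05Rik on the other strand. The library kit kept the strand of the RNA, but whether the counting used it was not given in the sources used here, so these counts may include reads of the overlapping genes.

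The sequences upstream of called genes are shown because DNMT3A acts on the cytosine of CG pairs, and these pairs, in capitals, are dense in some of the promoters and sparse in others. They are the 250 bases before the annotated start, written 5′ to 3′ on the strand of the gene, from RefSeq on GRCm38.p6. An entry was found for 15 of the 19 genes called. Pou4f1 lies at chr14:104468000-104468249 (minus strand), Hoxa6 at chr6:52208673-52208922 (minus), Lhx4 at chr1:155742028-155742277 (minus), Dct at chr14:118052247-118052496 (minus), Gabrr2 at chr4:33062862-33063111 (plus) and Gabra2 at chr5:71095850-71096099 (minus).
Pou4f1: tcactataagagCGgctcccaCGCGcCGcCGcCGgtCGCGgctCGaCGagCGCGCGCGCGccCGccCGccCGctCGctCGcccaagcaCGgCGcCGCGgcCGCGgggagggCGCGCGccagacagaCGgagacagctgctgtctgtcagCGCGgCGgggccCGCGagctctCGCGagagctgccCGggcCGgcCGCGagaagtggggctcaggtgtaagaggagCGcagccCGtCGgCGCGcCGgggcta
Hoxa6: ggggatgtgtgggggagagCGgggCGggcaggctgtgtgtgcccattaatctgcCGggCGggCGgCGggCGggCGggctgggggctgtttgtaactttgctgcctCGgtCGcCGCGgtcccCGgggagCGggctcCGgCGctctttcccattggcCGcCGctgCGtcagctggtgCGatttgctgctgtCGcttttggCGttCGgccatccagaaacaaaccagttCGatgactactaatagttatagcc
Lhx4: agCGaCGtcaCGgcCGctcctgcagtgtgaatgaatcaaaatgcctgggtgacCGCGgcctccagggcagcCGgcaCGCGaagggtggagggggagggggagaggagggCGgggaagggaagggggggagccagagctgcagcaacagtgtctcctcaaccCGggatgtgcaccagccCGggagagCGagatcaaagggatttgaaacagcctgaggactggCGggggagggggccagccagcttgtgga
Dct: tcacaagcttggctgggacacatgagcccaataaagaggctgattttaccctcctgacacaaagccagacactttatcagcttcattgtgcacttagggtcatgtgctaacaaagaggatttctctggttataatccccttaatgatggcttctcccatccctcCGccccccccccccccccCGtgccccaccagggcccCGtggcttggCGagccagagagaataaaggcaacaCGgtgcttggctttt
Gabrr2: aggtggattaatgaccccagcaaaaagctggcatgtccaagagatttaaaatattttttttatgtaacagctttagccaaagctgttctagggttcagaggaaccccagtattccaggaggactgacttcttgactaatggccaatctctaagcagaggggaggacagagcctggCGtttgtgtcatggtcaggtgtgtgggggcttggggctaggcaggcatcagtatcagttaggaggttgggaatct
Gabra2: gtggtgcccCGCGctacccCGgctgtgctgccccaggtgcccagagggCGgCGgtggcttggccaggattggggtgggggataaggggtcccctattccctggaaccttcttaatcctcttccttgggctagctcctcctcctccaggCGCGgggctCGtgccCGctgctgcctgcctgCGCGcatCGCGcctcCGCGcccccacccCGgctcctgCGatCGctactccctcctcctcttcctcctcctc

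CG pairs numbered 47 upstream of Pou4f1, 24 upstream of Hoxa6, 18 upstream of Gabra2 and 14 upstream of Lhx4, against 5 for Dct and 1 for Gabrr2. The median over all 32851 promoters of the table was 6, with quartiles of 2 and 16, and 0.25% of the promoters had as many as Pou4f1. Of the genes called lower, Rln1 had 2 and Nr2e1 had 15.

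Promoters were sorted by their marks in +/+ hypothalamus, where a mark was counted when its mean signal over 3 libraries was at least 3 times that of input. The same legend gives the hypothalamus of the mark tracks as male. The marks may therefore come from other mice, and from another sex, than the RNA. The signal was taken around the start of the gene model used for expression, which can differ from the RefSeq start of the sequences above. For Hoxa6 the model starts at chr6:52211356 (minus), so its marks and its printed bases cover different stretches. Of the 17839 genes tested, 816 carried both marks, 232 H3K27me3 only, 12557 H3K4me3 only and 4234 neither. Of the 15 genes called higher, 4 carried both marks (Lhx4, Hoxa7, Pou4f1, Tuba1c), 3 carried H3K27me3 only (Wt1, Hoxa6, Hoxa4) and 8 carried neither. However, 7 of the 15 reached the expression limit in no +/+ library, among them Hoxa4, Hoxa6 and Hoxa7, which had no +/+ read. Such silent genes could be tested only if higher in Δ/D329A, so these counts cannot be read against the class sizes. Of the 4 called lower, Gabra2 and Rln1 carried H3K4me3 only, Nr2e1 carried both and Mndal carried neither.

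Genes of pigment cells and cartilage were the second group at the top of the ranking. Dct, dopachrome tautomerase of melanin synthesis, stood at −4.38, −3.56, −5.07, −3.55 and −3.25 log2 RPKM in +/+ and at 0.47, 0.98, 1.02 and 1.54 in Δ/D329A. Gpnmb, a transmembrane glycoprotein of melanosomes and of macrophages, stood at −3.13, −3.08, −4.67, −2.42 and −2.83 in +/+ and at 1.13, 0.20, 1.16 and 1.23 in Δ/D329A. No Δ/D329A library overlapped the +/+ range for either gene. Of the 11 melanocyte genes listed, 5 passed the expression limit. Tyr, tyrosinase, had 0 to 1 reads per library, and Pmel, the fibril protein of melanosomes, had 3 to 8 reads in +/+ and 0 to 5 in Δ/D329A.

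Lect1, which encodes the cartilage protein chondromodulin, was at −0.91, −0.33, −1.16, −1.14 and −1.96 log2 RPKM in +/+ and at 2.08, 1.95, 1.99 and 2.49 in Δ/D329A, a difference of 3.23 (standard error 0.29, limma adjusted p = 0.000607). Matn1, matrilin of the cartilage matrix, had 0 to 5 reads per library in +/+ and 21 to 35 in Δ/D329A. The other members of the cartilage list gave no call, and the median of its 12 tested genes was 0.11.

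Plin4, perilipin 4, a coat protein of lipid droplets that glucocorticoids induce in several tissues, was at −0.87, −1.10, −1.10, −1.23 and −1.56 log2 RPKM in +/+ and at 0.64, 0.47, 0.54 and 0.67 in Δ/D329A. The difference was 1.75 (standard error 0.18, limma adjusted p = 0.00173) and the 4 Δ/D329A values lay close together. Gabrr2, the rho subunit of ionotropic GABA receptors, rose from −2.95, −2.72, −2.49, −3.03 and −2.83 to 0.30, −0.15, −0.64 and −0.03, a difference of 2.68 (standard error 0.22, limma adjusted p = 0.000429). Plin4 overlaps the gene model of Hdgfrp2.

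Bcas1, a gene of newly forming and mature oligodendrocytes, was the most strongly expressed gene called. It was at 3.89, 4.35, 3.94, 3.76 and 3.97 log2 RPKM in +/+ and at 5.31, 5.42, 5.86 and 6.30 in Δ/D329A, a difference of 1.74 (standard error 0.22, limma adjusted p = 0.00783). Each Δ/D329A library stood well above the highest +/+ library. The gene model overlaps 1700040N02Rik and Gm14259 on the other strand, and the call was kept under 9 of the 21 ways of processing that tested the gene.

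Gabra2, the alpha-2 subunit of GABA-A receptors, was the highest expressed of the genes called lower. It was at 3.70, 3.88, 3.81, 3.52 and 3.44 log2 RPKM in +/+ and at 2.46, 2.32, 2.50 and 2.40 in Δ/D329A, a difference of −1.25 (standard error 0.13, limma adjusted p = 0.00176). Nr2e1, an orphan nuclear receptor of neural stem cells, was at −0.39, −0.57, −0.17, −0.60 and −0.35 in +/+ and at −2.44, −1.70, −1.82 and −2.37 in Δ/D329A. The groups were apart in both genes. Mndal, of an interferon-inducible family with near-identical copies, had 10 to 21 reads in +/+ mice against 0 to 3 in Δ/D329A mice, and its gene model overlaps those of Mnda and Ifi203. Rln1, relaxin 1, had 3 to 8 and 0 to 1 reads. The calls of Mndal and Rln1 were kept under 7 and 4 of 18 ways of processing, that of Nr2e1 under 8 of 21 and that of Gabra2 under 16 of 21. Of the genes called higher, Tuba1c kept its call under 12 of 21, and each of the others apart from Bcas1 lost it under at most 3.

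**Figure D2:**
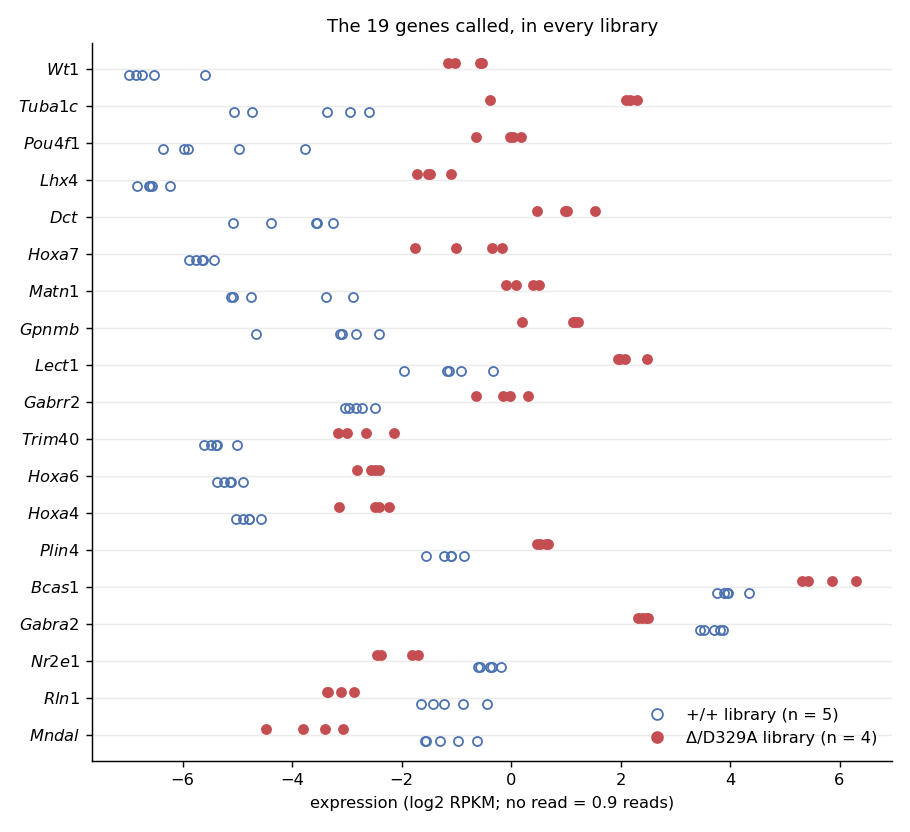
Expression (log2 RPKM, where no read is shown as 0.9 reads) of the 19 genes called in each of the 5 +/+ libraries (open circles) and 4 Δ/D329A libraries (filled circles), ordered by the log2 difference. In each gene the circles of the groups do not overlap, which the expression limit fixed in advance for 7 of the genes called higher. Tuba1c and Gpnmb in Δ/D329A show the library that stands apart, replicate 2.

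Further lower genes did not pass the threshold of limma but passed that of edgeR or DESeq2. Dcx, doublecortin of migrating young neurons, was at 0.89, 0.61, 0.70, 0.81 and 1.0 log2 RPKM in +/+ and at 0.02, −0.08, −0.11 and 0.05 in Δ/D329A (difference −0.83, standard error 0.15, limma adjusted p = 0.0758, DESeq2 adjusted p = 0.000253). Adamts6, a secreted metalloprotease, differed by −0.96 (limma adjusted p = 0.0371, edgeR 0.00186), and Pgr15l, an orphan receptor gene, by −1.19 (limma adjusted p = 0.0387, edgeR 0.000941). In all 3 genes the groups did not overlap.

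To describe the rest of the ranking, 104 lists of genes for cell types, brain regions, pathways and gene families were followed, each by the median log2 difference of its tested members beside the 0.06 of all genes tested. Of the 84 lists with at least 10 tested members, 68 had a median within 0.2 of that of all genes, 11 lay more than 0.2 below it and 5 more than 0.2 above it. The lists far below were those of tanycytes, hypothalamic neuropeptides, cholesterol synthesis, the interferon response, oligodendrocytes, Notch, hypothalamic transcription factors, oligodendrocyte precursors, neuropeptide receptors, GABA and glycine receptors and keratins. The lists far above were those of the thalamus, microglia, meningeal fibroblasts and glucocorticoid-induced genes, and genes with a Gm number, which hold many genes without reads.

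The level of a list in a library was taken as the median over its members of the log2 RPKM minus the mean of that gene in +/+. As deposited, the +/+ libraries differed so much in their overall level (median of all genes from 0.81 to 1.49 log2 RPKM, against 0.91 to 1.22 in Δ/D329A) that none of the 84 lists was without overlap between the groups. Relative to the median of all genes in the same library, a scale chosen after the values had been seen, the groups did not overlap in 9 lists. These were tanycytes, GABA and glycine receptors, cholesterol synthesis, fatty acid synthesis, Wnt, Notch, imprinted genes, homeobox genes and Zfp zinc finger genes. Limited to genes with at least 10 reads on average, in the lists and in the median of all genes, the groups did not overlap in 4 of the 9, those of tanycytes, cholesterol synthesis, fatty acid synthesis and Wnt, and overlapped in the other 5. Relative levels over all tested members are given below.

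**Figure D3:**
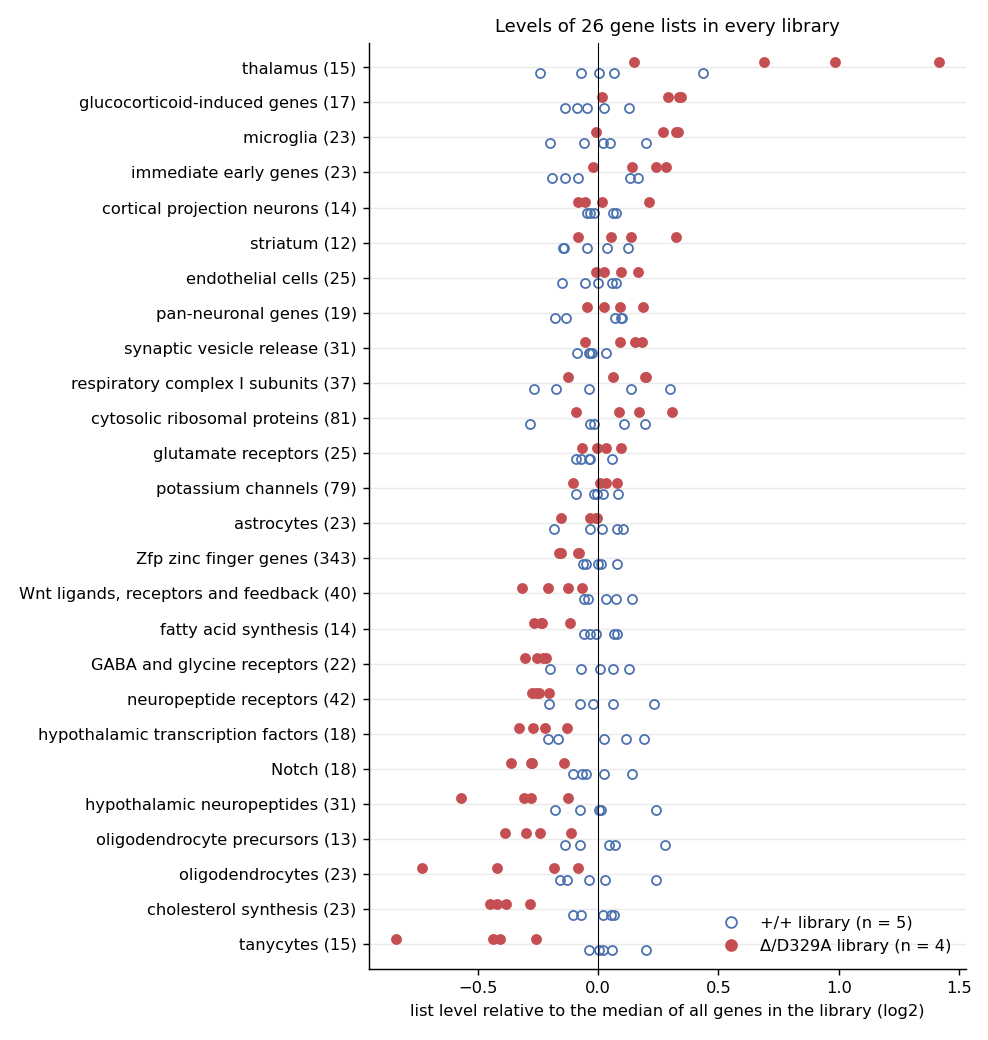
Each circle is the level of a list in 1 library (x axis, log2, relative to the median of all genes in that library), open for the 5 +/+ and filled for the 4 Δ/D329A libraries, with the number of tested members in brackets. The thalamus list stands to the right in Δ/D329A, from 0.15 to 1.41, and the tanycyte, cholesterol synthesis and oligodendrocyte lists to the left. The lists of neurons, synapses, ribosomes and respiration lie on both sides of 0 in both groups, from −0.28 to 0.31 for cytosolic ribosomal proteins.

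Genes of the thalamus, the region above the hypothalamus, gave the highest median of any list with at least 10 tested members. All 15 tested entries lay above 0, with a median of 0.75, 13 of them in the top 10% of the ranking (which holds 9.99% of all genes), and the groups did not overlap in 6. Limma called none, and 10 had an unadjusted limma p under 0.05 (7.62% of all genes), all of them higher. EdgeR on the reads called 4 higher, against 0.288% of all genes, and DESeq2 called 7, against 0.833%.

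Ramp3, a partner of the calcitonin receptor family, was at 1.69, 1.78, 1.98, 0.49 and 1.55 log2 RPKM in +/+ and at 3.81, 3.50, 2.72 and 3.39 in Δ/D329A (difference 1.86, standard error 0.31, limma adjusted p = 0.0497, edgeR adjusted p = 0.00117). Tnnt1, slow troponin T, which also marks thalamic neurons, was at −0.17, −0.78, −0.79, −1.29 and 0.03 in +/+ and at 2.31, 1.65, 0.45 and 2.06 in Δ/D329A (difference 2.22, limma adjusted p = 0.0665, edgeR adjusted p = 0.00376). In both genes Δ/D329A replicate 3 was the lowest of its group and still above the +/+ range. Synpo2, an actin-binding protein, differed by 1.19 (limma adjusted p = 0.089, edgeR adjusted p = 0.0067) and Rora, a nuclear receptor of thalamic relay neurons, by 0.75 (limma adjusted p = 0.268, DESeq2 adjusted p = 0.00445). Of the defining genes, Gbx2 differed by 1.79, Tcf7l2 by 0.73 and Prkcd by 0.52, with overlapping groups.

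The relative level of the thalamus list was 0.00, −0.07, 0.07, −0.24 and 0.44 in +/+ and 1.41, 0.98, 0.15 and 0.69 in Δ/D329A. Δ/D329A replicates 1, 2 and 4 lay above all +/+ libraries, and replicate 3 lay below +/+ replicate 5. Without Δ/D329A replicates 1 and 2 the median of the list was 0.56. How much tissue next to the hypothalamus each dissection held is not given, and its part in this or any other difference was not tested. Pcp2 and Gabra6 of the cerebellum were at or near 0, with 0 to 1 and 0 to 3 reads. Of midbrain dopamine neurons, Pitx3 had 0 to 2 reads, while the other defining markers of that list had 9 to 482 reads per library. The 9 tested members of the dopamine list had a median of 0.21, and DESeq2 called 2 of them higher. Of the habenula, which borders the thalamus, Chrnb4 had 2 to 8 reads in +/+ and 0 to 1 in Δ/D329A, whereas Pou4f1, which marks the same neurons, had 0 to 5 and 27 to 58.

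Genes of cortex and striatum gave medians near that of all genes (0.03 over 14 and 0.14 over 12 tested members). A few of their members were apart between the groups. Ppp1r1b, the dopamine-regulated phosphatase inhibitor DARPP-32, was at 1.10, 0.77, 0.59, 0.02 and 0.68 log2 RPKM in +/+ and at 1.61, 1.51, 1.64 and 1.81 in Δ/D329A (difference 1.01, limma adjusted p = 0.144, edgeR adjusted p = 0.00584). Tbr1, a transcription factor of cortical projection neurons, had 3 to 13 reads in +/+ and 18 to 22 in Δ/D329A. Neurod6, another defining marker of that list, had 8 to 16 and 3 to 13 reads.

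Genes that pattern and identify hypothalamic neurons lay toward the lower end. Of 18 transcription factors of the hypothalamus, all tested, 5 lay above 0 and 9 in the bottom 10%, with a median of −0.24. Sim1, required for the neurons of the paraventricular nucleus, was at 0.96, 1.18, 1.19, 1.09 and 0.81 log2 RPKM in +/+ and at 0.20, −0.12, 0.32 and 0.49 in Δ/D329A. The groups did not overlap (difference −0.82, standard error 0.17, limma adjusted p = 0.155, edgeR adjusted p = 0.00858). Foxb1, a factor of the mammillary region, differed by −0.92 (DESeq2 adjusted p = 0.00905) and Lhx1 by −0.50, while Otp, which acts beside Sim1 in the same nucleus, differed by 0.57 with overlapping groups. Nkx2-1, the early regional factor, differed by −0.14.

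The 31 hypothalamic neuropeptide genes had a median of −0.36, with 10 above 0 and 13 in the bottom 10%. Limma called none, with 2 higher and 8 lower at an unadjusted p under 0.05, against 7.62% of all genes in either direction. EdgeR called 2 lower (0.267% of all genes), Adcyap1 and Cartpt, and DESeq2 called 3 (0.775%), these and Tac1. Adcyap1, which encodes PACAP, was at 4.52, 4.15, 4.25, 3.93 and 3.62 log2 RPKM in +/+ and at 3.45, 2.93, 3.48 and 3.62 in Δ/D329A (difference −0.73, standard error 0.20, limma adjusted p = 0.342, edgeR adjusted p = 0.00165). Its groups were apart by a small margin, with +/+ replicate 5 next to Δ/D329A replicate 4. Tac1, which encodes substance P, was at 4.90, 4.69, 4.59, 4.35 and 3.69 in +/+ and at 3.76, 3.52, 3.95 and 4.01 in Δ/D329A (difference −0.63, DESeq2 adjusted p = 0.000369).

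Peptides of the magnocellular system and of energy balance spanned both directions. Avp (vasopressin) and Oxt (oxytocin) differed by 0.33 and 0.03, and Trh (thyrotropin-releasing hormone) by 0.32. Pmch differed by −0.39, Hcrt by −0.25, Pomc (pro-opiomelanocortin) by −1.06 and Agrp (agouti-related peptide) by 0.14, each with overlapping groups and a limma adjusted p of 0.355 or more. Pomc varied within both groups, and was at 5.12 in +/+ replicate 1 and between 3.26 and 3.57 in the other +/+ libraries, and at 1.5 in Δ/D329A replicate 2 and between 2.74 and 3.40 in the other Δ/D329A libraries.

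The relative level of the neuropeptide list was 0.24, 0.01, 0.00, −0.08 and −0.18 in +/+ and −0.13, −0.57, −0.31 and −0.28 in Δ/D329A. The groups overlapped, and leaving out Δ/D329A replicate 2 moved the median relative to all genes from −0.42 to −0.24. The 42 tested receptors of neuropeptides had a median of −0.19, with 15 in the bottom 10% and 1 in the highest. Ghsr, the ghrelin receptor, differed by −1.02 (limma adjusted p = 0.235, edgeR adjusted p = 0.00845). Oprk1, the kappa opioid receptor, was at 1.09, 1.26, 1.34, 1.17 and 0.82 log2 RPKM in +/+ and at 0.56, 0.29, 0.60 and 0.46 in Δ/D329A, without overlap (difference −0.66, limma adjusted p = 0.234, DESeq2 adjusted p = 0.00139). Vipr1, a receptor of the peptide VIP, differed by 1.14 at 4 to 11 reads in +/+ and 7 to 20 in Δ/D329A.

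Genes of neurons in general lay near the median of all genes. The median was 0.10 over 19 pan-neuronal genes, 0.14 over 12 genes of GABAergic and −0.01 over 7 genes of glutamatergic and cholinergic neurons, none of them called by limma, edgeR or DESeq2, and 1 pan-neuronal gene, higher, had an unadjusted limma p under 0.05. Genes of synaptic vesicle release had a median of 0.15 with 28 of 31 above 0. Cplx1, complexin of the release machinery, differed by 0.50 (limma adjusted p = 0.355, DESeq2 adjusted p = 0.00157), and Rims1, a scaffold of the active zone, by 0.46 without overlap between the groups. Potassium channel genes (79 tested) and glutamate receptor genes (25 tested) had medians of 0.08 and 0.07.

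The GABA and glycine receptors, which carry fast inhibition, had members at both ends of the ranking. Of 22 tested, 11 lay in the bottom 10% and 4 in the highest, and the median was −0.19. Limma called Gabrr2 higher and Gabra2 lower. Gabrd, the delta subunit of extrasynaptic receptors and a gene of thalamic relay neurons and granule cells, was at 0.16, −0.54, −0.18, −1.48 and −1.35 log2 RPKM in +/+ and at 2.18, 0.81, 0.55 and 1.25 in Δ/D329A (difference 1.87, standard error 0.41, limma adjusted p = 0.183, edgeR adjusted p = 0.00493). Gabrq, the theta subunit, which is typical of hypothalamus, was at 3.56, 3.54, 3.58, 3.02 and 2.94 in +/+ and at 2.87, 2.64, 2.92 and 2.89 in Δ/D329A (difference −0.50, limma adjusted p = 0.355, edgeR adjusted p = 0.00994). The relative level of the list was −0.20, 0.13, 0.06, 0.01 and −0.07 in +/+ and −0.22, −0.23, −0.30 and −0.25 in Δ/D329A, apart by a small margin, and the groups overlapped over genes with at least 10 reads.

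Tanycyte genes had the lowest median of the 84 lists, −0.41, with 1 of 15 above 0 and 8 in the bottom 10%. Crym, a thyroid hormone-binding crystallin of tanycytes, was at 0.27, −0.00, 0.60, −0.07 and −1.84 log2 RPKM in +/+ and at −2.05, −1.99, −1.69 and −1.15 in Δ/D329A. It was low in all Δ/D329A mice and in +/+ replicate 5 (difference −1.51, limma adjusted p = 0.355, DESeq2 adjusted p = 0.00175). Fgf10, a growth factor made by tanycytes, had 27 to 45 reads in +/+ and 10 to 21 in Δ/D329A (difference −0.88, limma adjusted p = 0.184). Of the defining genes, Rax differed by −0.00, Col23a1 by −0.26 and Gpr50 by −0.43. The relative level was 0.02, 0.06, 0.20, 0.01 and −0.04 in +/+ and −0.26, −0.84, −0.43 and −0.41 in Δ/D329A. Leaving out Δ/D329A replicate 2 moved the median relative to all genes from −0.48 to −0.29.

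Myelin genes lay lower while Bcas1 rose. The 23 tested oligodendrocyte genes had a median of −0.26, with 4 above 0 and 10 in the bottom 10%. Mobp, a structural protein of myelin, was at 5.79, 6.19, 5.66, 5.53 and 5.43 log2 RPKM in +/+ and at 5.13, 4.25, 5.38 and 5.07 in Δ/D329A (difference −0.76, standard error 0.25, limma adjusted p = 0.355, DESeq2 adjusted p = 0.000509). Mog differed by −0.20 and Mbp by −0.02, with overlapping groups. Gjc3, a connexin of oligodendrocytes, differed by 0.54 (DESeq2 adjusted p = 0.00256). The relative level of the list was −0.04, 0.24, −0.16, −0.13 and 0.03 in +/+ and −0.18, −0.73, −0.08 and −0.42 in Δ/D329A, so that Δ/D329A replicates 2 and 4 were low and replicates 1 and 3 were next to or within the +/+ range. Without Δ/D329A replicate 2 the median of the list was −0.10, and relative to all genes it went from −0.33 to −0.24.

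Genes of oligodendrocyte precursors had a median of −0.20 over 13 tested, with 3 above 0. Pdgfra, the growth factor receptor that defines these cells, was at 3.19, 3.16, 2.93, 2.80 and 2.45 log2 RPKM in +/+ and at 2.49, 2.1, 2.34 and 2.49 in Δ/D329A (difference −0.55, limma adjusted p = 0.355, edgeR adjusted p = 0.00734). Only +/+ replicate 5 reached the Δ/D329A range. Cspg4 and Gpr17, the other defining genes, differed by −0.20 and −0.17.

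The other glia differed less. Astrocyte genes had a median of −0.02 with 11 of 23 above 0. DESeq2 called Itih3 lower (difference −0.40, DESeq2 adjusted p = 0.000365), and Gfap, the intermediate filament that reactive astrocytes raise, differed by 0.61 with overlapping groups. Microglial genes had a median of 0.34 with 20 of 23 above 0 and none apart between the groups. Tyrobp, the signalling adaptor of microglia, was at 2.46, 2.14, 1.41, 1.63 and 1.27 log2 RPKM in +/+ and at 3.22, 2.08, 3.22 and 2.60 in Δ/D329A. The homeostatic markers Cx3cr1, Tmem119 and P2ry12 differed by 0.29, 0.34 and −0.22. Without +/+ replicate 5 the median of the list relative to all genes went from 0.28 to 0.16.

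Genes of vessels and of the brain surface gave no call by limma, edgeR or DESeq2, and 2 endothelial and 0 meningeal genes had an unadjusted limma p under 0.05. Endothelial genes had a median of 0.15. Genes of meningeal fibroblasts had a median of 0.33 but were spread over libraries between −0.85 and 0.74 (+/+) and between −0.41 and 0.95 (Δ/D329A), and without +/+ replicate 3 the median was 0.03. Cd3e of T cells had 0 to 1 reads and Ly6g of neutrophils had 0 in every library, whereas the defining markers of red blood cells had 30 to 275 reads in +/+ and 35 to 292 in Δ/D329A, with a median of 0.22 over 6 tested genes. S100a9, of neutrophils and monocytes, had 0 to 4 reads in +/+ and 4 to 13 in Δ/D329A. The 6 tested genes of that list, Ly6g among them, all lay above 0 with a median of 1.19. In 3 of the 6 the Δ/D329A libraries were all above the +/+ libraries, against 1.78% of all genes. The list rests on few reads, with 0 for S100a8 in +/+ and 0 to 6 in Δ/D329A.

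**Figure D4:**
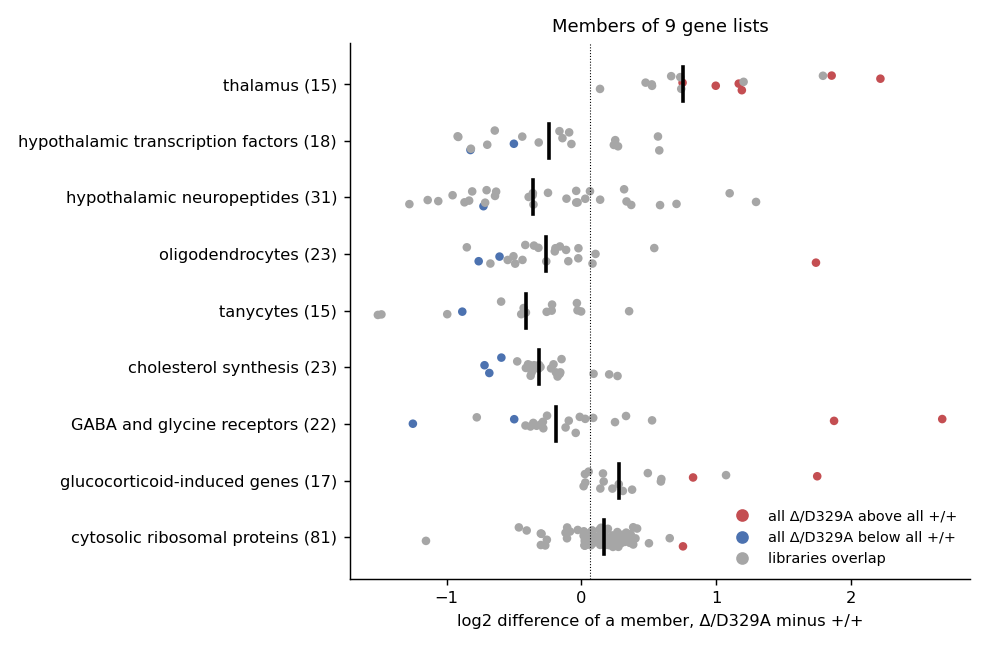
Each point is the log2 difference, Δ/D329A minus +/+, of 1 tested member of 9 lists, coloured where the libraries of the groups do not overlap. The vertical bars are list medians (0.75 for the thalamus, −0.41 for tanycytes, −0.31 for cholesterol synthesis) and the dotted line is the median of all genes, 0.06.

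Cholesterol synthesis had the lowest median of the metabolic lists. The pathway makes sterols from acetyl-CoA through mevalonate and squalene, and neurons and oligodendrocytes depend on it because brain cholesterol is made locally. Of 23 tested genes, 3 lay above 0 and 12 in the bottom 10%, and the median was −0.31. Limma called none, with 6 lower and 0 higher at an unadjusted p under 0.05, against 7.62% of all genes in either direction. EdgeR called 2 lower, Sqle among them, against 0.267% of all genes. DESeq2 called 6 lower, which included Idi1, Hmgcs1, Insig1 and Sc5d, against 0.775%. In 3 of the 23 genes (against 1.23% of all genes) the Δ/D329A libraries were all below the +/+ libraries.

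Sqle, squalene epoxidase, was at 3.38, 2.92, 3.07, 2.70 and 2.41 log2 RPKM in +/+ and at 2.28, 2.18, 2.16 and 2.23 in Δ/D329A (difference −0.68, standard error 0.18, limma adjusted p = 0.308, edgeR adjusted p = 0.00175). Idi1, isopentenyl diphosphate isomerase, was at 3.11, 3.63, 3.31, 3.04 and 2.78 in +/+ and at 2.66, 1.97, 2.66 and 2.53 in Δ/D329A (difference −0.72, DESeq2 adjusted p = 0.000496). In both genes every Δ/D329A value lay below the +/+ range. Srebf2, the transcriptional activator of the pathway, differed by 0.09.

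The relative level of the cholesterol list was 0.06, 0.07, 0.02, −0.07 and −0.10 in +/+ and −0.28, −0.42, −0.45 and −0.38 in Δ/D329A. Leaving out any 1 library kept its median relative to all genes between −0.44 and −0.33. Fatty acid synthesis followed at a smaller size, with a median of −0.13, 2 of 14 above 0, and relative levels of −0.12 to −0.26 in Δ/D329A against −0.06 to 0.08 in +/+. Scd1 and Scd2, the desaturases that make oleate, differed by −0.33 and −0.28 (DESeq2 adjusted p = 0.00411 and 0.00184).

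Energy metabolism and protein synthesis lay close to the median of all genes. Complex I subunits had a median of 0.16 with none of 37 in the highest or bottom 10%, glycolysis 0.14, cytosolic ribosomal proteins 0.17 with 68 of 81 above 0, aminoacyl-tRNA synthetases 0.10, and the proteasome 0.06. These lists moved together with the overall level of a library, from 0.65 in +/+ replicate 1 to −0.56 in +/+ replicate 5 for complex I, a span wider than the difference between the genotypes.

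Genes that glucocorticoids induce gave a median of 0.28 with all 17 above 0 and 7 in the top 10%. Plin4 was the only member called. Sult1a1, a sulfotransferase, was at 0.82, −0.10, 0.80, 0.91 and 0.24 log2 RPKM in +/+ and at 1.32, 1.37, 1.58 and 1.18 in Δ/D329A, without overlap (difference 0.83, limma adjusted p = 0.329). The classical targets Fkbp5, Sgk1 and Tsc22d3 differed by 0.28, 0.59 and 0.14. Immediate early genes, which neurons switch on with activity, had a median of 0.22 with 17 of 23 above 0. Egr1 was at 1.89, 1.90, 2.22, 1.5 and 2.05 in +/+ and at 2.86, 2.51, 2.50 and 2.55 in Δ/D329A (difference 0.69, limma adjusted p = 0.234, DESeq2 adjusted p = 0.00715), whereas Fos differed by 0.21 and Jun by −0.01.

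Of the signalling pathways, Notch and Wnt lay below the median of all genes. The 18 Notch genes had a median of −0.25 with 5 above 0. Nrarp, a feedback target of Notch, was at 3.29, 2.76, 2.88, 2.50 and 2.42 log2 RPKM in +/+ and at 2.27, 2.05, 2.07 and 2.14 in Δ/D329A (difference −0.64, limma adjusted p = 0.348, edgeR adjusted p = 0.0055). Heyl, a transcriptional target of the pathway, differed by −0.49, also without overlap, and the ligand Jag1 and receptor Notch1 by −0.49 and −0.25. Wnt ligands, receptors and feedback genes had a median of −0.14 over 40 tested, with 14 in the bottom 10%. Interferon response genes had a median of −0.28 over 25 tested. Ifi27l2a had the smallest limma p of that list (difference −1.78, limma adjusted p = 0.0154) but rested on 4 to 6 reads in +/+ and 0 to 2 in Δ/D329A, and DESeq2 gave an adjusted p of 0.289.

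Homeobox genes encode DNA-binding regulators of development. Of 182 listed, 91 were tested, and limma called 5 higher (Lhx4, Pou4f1, Hoxa4, Hoxa6, Hoxa7), against 0.0841% of all genes, and 0 lower. Hoxa4, Hoxa6 and Hoxa7 had no +/+ read and were tested only through the Δ/D329A libraries. The share called is therefore not a fair measure against that of all genes. In 12 the Δ/D329A libraries were all above the +/+ libraries, against 1.78% of all genes. However, 7 of these reached the expression limit in no +/+ library and so had to differ. Of the other 84 homeobox genes, 5 were above without overlap, against 299 of the 17821 genes left when such genes are set aside. Below were 2 of the 91, against 1.23% of all genes. With at least 10 reads on average, 74 remained, with a median of 0.17. The Zfp zinc finger genes, many of them repressors of transposable elements, had a median of −0.05 over 343 tested, with 142 above 0, 5 in the top 10% and 53 in the lowest. Their relative levels, −0.06 to 0.08 in +/+ and −0.16 to −0.08 in Δ/D329A, did not overlap, though they did over genes with at least 10 reads (−0.11 to 0.06 and −0.10 to −0.03). Limma called none of the genes (15 lower and 1 higher at an unadjusted p under 0.05) and DESeq2 called 1, Zfp423, higher. Replication-dependent histone genes had a median of 0.22 and overlapping levels, and Polycomb components a median of 0.10.

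Genes were also grouped by the marks of their promoters. Among genes with at least 10 reads, 24 of 655 bivalent genes (3.66%) were above without overlap and 24 (3.66%) below. For promoters with H3K27me3 only the shares were 5.36% and 3.57% of 112 genes, for H3K4me3 only 0.997% and 1.30% of 11641, and for neither mark 3.49% and 1.30% of 1462, against 1.42% and 1.43% of all genes with that many reads. The medians of the classes were 0.01, 0.00, 0.02 and 0.08. The classes also differed in level, with a median of 55.7, 27.1, 218.7 and 51.6 reads per library. Among all genes tested, the shares without overlap depended on level. They were 2.02% above and 2.07% below at 0.37 to 1.10 log2 RPKM, and 0.22% and 0.34% at 3.63 to 11.18. The shares of the classes therefore mix marks with level, and a difference between classes at equal level was not tested.

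Long genes stood toward the higher end. Of the 883 genes of at least 200 kb with at least 10 reads, 67.4% lay above 0, against 53.6% of all such genes, and 43 (4.87%) were above without overlap and 9 (1.02%) below. Rora, Rims1, Kcnab1 (a potassium channel subunit) and Robo1 (an axon guidance receptor) were among them, at 0.75, 0.46, 0.59 and 0.41. Of the genes of 20 to 50 kb with that many reads, 39 (1.05% of 3703) were above without overlap and 67 (1.81%) below. Of those of 50 to 100 kb, 30 (1.47% of 2042) were above and 46 (2.25%) below. The shares of all genes with at least 10 reads were 1.42% above and 1.43% below, near those of both classes. On chromosome X, 41.3% of 496 genes lay above 0, and 3 were above and 20 (4.03%) below without overlap. Dcx, Pgr15l, Gabrq, Zfp280c and Pcdh19 were among the genes below.

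**Figure D5:**
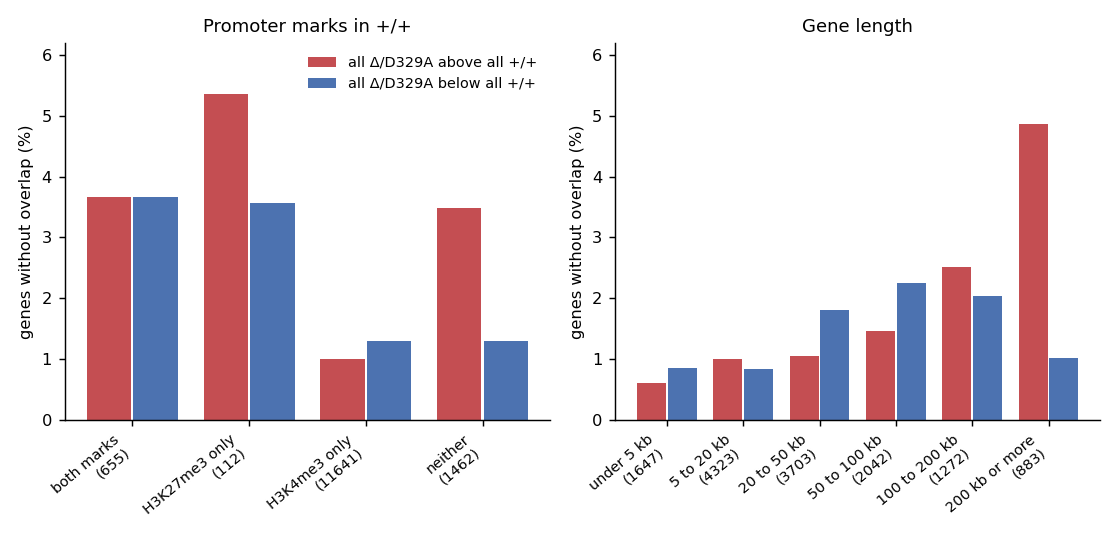
Share of genes (y axis, percent) whose 4 Δ/D329A libraries were all above (first bar of a pair) or all below (second bar) the 5 +/+ libraries, by promoter marks in +/+ on the left and by gene length on the right, for genes with at least 10 reads on average, with the number of genes in brackets. The bars are uneven for promoters with neither mark (3.49% and 1.30%) and for genes of 200 kb or more (4.87% and 1.02%), and equal for bivalent promoters.

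Finally, genes read in a single genotype were counted over the whole table. In 13 genes no +/+ library had a read and every Δ/D329A library had at least 1, and in 6 genes the reverse held. The 13 were Hoxa4, Hoxa5, Hoxa6, Hoxa7, Cdkn2a (an inhibitor of the cell cycle), Gata6 (a factor of endoderm and heart), Chrna9 and its neighbour 9130230L23Rik, Cd27, Lrtm1, Fer1l6, Trim10 and 4930465M20Rik. Apart from Hoxa7 and Hoxa5 they had at most 6 reads in any library, for example 2, 1, 1 and 6 for Cdkn2a and 4, 1, 2 and 5 for Gata6. Of the 6 reversed genes, Kremen2, a receptor that limits Wnt signalling, had 28, 3, 11, 5 and 8 reads in +/+ and 0 in each Δ/D329A library (limma adjusted p = 0.0758, DESeq2 adjusted p = 0.0012). Ebi3, Pydc3, Gm13789, Gm20645 and Lrrc15 had 1 to 6 reads per +/+ library.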

How the data were processed

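RNA-seq libraries of 5 +/+ and 4 Δ/D329A hypothalami were used, with the groups taken from the labels. The authors trimmed the reads with Trim Galore, mapped them to GRCm38 with HISAT2 2.0.5, merged them over the exons of each gene in SeqMonk and gave each gene a log2 RPKM value. In the deposited values, 0 reads stand as 0.9 reads. All values of the 25965 genes equalled whole reads within 0.02 reads, and these reads were used for edgeR and DESeq2. For ChIP-seq, the deposited signal is the authors' read count per tile, corrected for library size. The mean signal plus 0.1 from 1500 bp before to 500 bp after the start of a gene was divided by that of input over 3 +/+ libraries, and a ratio of 3 or more was taken as marked.

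The test was that of limma 3.58.1 (R 4.3.3), two-sided and with a mean-variance trend, over genes that reached 0.1 RPKM in 4 or more libraries. A gene was called when its adjusted p (Benjamini-Hochberg) was under 0.01. The deposited values were used without further normalization. EdgeR 4.0.16 (quasi-likelihood) and DESeq2 1.42.0 were alternatives at the same threshold, as were median centring, quantile normalization, other pseudocounts, expression limits and thresholds, library weights, a replicate block and leaving out each library. P-values measure the spread between these mice. The members and lists were chosen with earlier results of these data known, lists were described by counts and medians without a test, and nothing here is independent support for patterns already seen in these data. Python 3.11.15 with numpy 2.4.6, pandas 2.3.3 and matplotlib 3.10.9 gave the list medians and plots.

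Genes named are those called by limma, the 10 higher and 10 lower with the smallest limma p, the members of a described list called by any tool or, where fewer than 3 were called, those with the smallest limma p up to 3, and the first 3 genes of a marker list. Further members were named after their values were seen, to fill in a pathway or a gene class. In simulated libraries of this comparison, limma recovered 1 of 100 changes of 2-fold and 81 of 100 of 4-fold. It made 1 false call over 17862 genes. EdgeR recovered 60 and 84 with 0 false calls over 13895 genes. Most 2-fold changes were missed by limma there. The simulation gave every gene the same dispersion, not its own spread in these mice, so the share missed in these data may differ. Some listed genes that the rule would name are not reported here.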

Additional observations from a re-analysis of the deposited data

Results flagged for a closer look

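Values that stood apart from the rest of their group were sought in 182 groups, the +/+ and Δ/D329A libraries of 42 lists and 49 genes, and 11 were found, where chance gives about 1 in 20. In 9 of the 11 the library that stood apart was Δ/D329A replicate 2, the library with the fewest reads on genes. Its list levels as deposited were −0.29 for astrocytes (0.09 to 0.15 in the other Δ/D329A libraries), −0.14 for microglia (0.42 to 0.45), −0.49 for midbrain dopamine neurons (0.49 to 0.55), −0.0874 for glycolysis (0.191 to 0.236), −0.13 for aminoacyl-tRNA synthetases (0.16 to 0.21) and −0.26 for the proteasome (0.15 to 0.18). In the same library Gpnmb was at 0.20 log2 RPKM (1.13 to 1.23 in the others), Gabrq at 2.64 (2.87 to 2.92) and Tuba1c at −0.38 (2.09 to 2.30). The low level of Tuba1c and Gpnmb there was still above every +/+ library.

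Crym, the tanycyte gene, was at −1.84 log2 RPKM in +/+ replicate 5, against −0.07 to 0.60 in the other +/+ libraries and −2.05 to −1.15 in Δ/D329A. Egr1, the activity-induced transcription factor, reached 2.86 in Δ/D329A replicate 1, while its group otherwise lay between 2.50 and 2.55.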

How the results depend on the processing

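The number of genes called depended on the processing. Against 19 (15 higher, 4 lower), limma called 34 with median centring (12 lower), 32 with quantile normalization (16 lower), 34 with library weights (27 higher, 7 lower) and 11 with a limit of 0.5 RPKM (1 lower). The number called lower was 2 with log2(RPKM + 1) and 2 without a limit. At adjusted p under 0.05 limma called 35 (27 and 8) and under 0.1 it called 47 (35 and 12). EdgeR called 77 with TMM (40 and 37) and 76 with RLE (40 and 36), and DESeq2 called 249 (130 and 119). The calls of median centring included 18 of the 19, those of edgeR 14 and those of DESeq2 15. With the replicate number as a block, limma called 16 (15 higher, 1 lower). The labels do not tie equal numbers to a litter or day, and same-numbered libraries did not deviate together (r = 0.14, −0.05, −0.05 and −0.05 for the 4 pairs). Leaving out 1 library gave 11 to 18 genes called, 11 to 17 higher and 0 to 4 lower. The lowest totals came without Δ/D329A replicate 4 (11) and replicate 1 (12), and limma called 0 lower without +/+ replicate 3, Δ/D329A replicate 2 or Δ/D329A replicate 4, with 409, 303 and 481 lower at an unadjusted p under 0.05. None of the 19 genes changed its direction under the alternatives that tested it. Limited to genes with at least 10 reads on average, the median of promoters with H3K27me3 only went from 0.346 to 0.00152 and that of promoters with neither mark from 0.369 to 0.0762, as genes without reads left the classes.

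The median of all genes was 0.06 as deposited and between −0.02 and 0.17 when 1 library was left out, so medians of lists are best read against it. Depth limits genes under about 10 reads, whose place in the ranking depends on the value given to 0 reads.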

Other observations

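Genes of the choroid plexus and of the anterior pituitary, tissues next to the hypothalamus, were also present. The pituitary list spanned −1.64 to 1.34 in +/+ and −0.82 to 0.34 in Δ/D329A, with 0 to 67 reads for Gh (growth hormone) and 2 to 137 for Prl (prolactin) per +/+ library, 6 to 72 and 3 to 38 per Δ/D329A library, and 0 to 1 for Pou1f1, the pituitary transcription factor. Ttr (transthyretin of the choroid plexus) had 7 to 25 reads in +/+ and 23 to 66 in Δ/D329A, while another defining marker of that list had 75 to 97 and 33 to 70, and the 11 tested members had a median of −0.07 with 4 above 0.

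On chromosome Y, 112 genes passed the expression limit although 110 of them had no read in any library, because a short gene at the floor of 0.9 reads exceeds 0.1 RPKM.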
